A study of Mus musculus with 3 samples.

Results

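Expression of the actin and tropomyosin genes was measured in 3 samples of normal mouse muscle, called muscle 1, muscle 2 and muscle 3. The members were the 10 genes Acta1, Actc1, Acta2, Actg2, Actb, Actg1, Tpm1, Tpm2, Tpm3 and Tpm4, taken by symbol, and every probe set annotated to exactly one of them was kept, which gave 24 of the 20393 probe sets that carry a single gene. The samples came from littermate controls aged 3 to 6 weeks and served as the normal reference in a study of muscle tumours that arose in mice with oncogenic lesions in Pax7+ satellite cells, the stem cells of muscle, or from cells transformed in vitro. The labels name neither the muscle taken nor the alleles of the littermates, and leave unstated whether these received the 4-hydroxytamoxifen injected into the hindlimb of tumour mice. Tumour arrays were not analysed here. With 1 group there was no contrast between conditions, so the data give the level of each probe set and its spread between muscles.

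Actin is the protein of the thin filament, and tropomyosin is a coiled coil that lies along it and, with the troponins, controls the access of myosin. Mammals make 6 actins from separate genes: a skeletal and a cardiac form in the sarcomere, a vascular and an enteric form in smooth muscle, and a beta and a gamma form in the cytoplasm of all cells. The 4 tropomyosin genes each give several proteins through alternative promoters and exons, so a single gene can serve both the sarcomere and the cytoskeleton. Transcription of several actin genes depends on serum response factor, which binds the CArG box.

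The promoters are shown for the 3 members in which a CArG box was found, with the box in capitals. RefSeq windows of GRCm38.p6 covered 8 of the 10 genes on 7 chromosomes in 9 windows, 2 of them for Tpm3. Actb and Actg2 had no window and were not searched. In each window the 250 bases before the annotated start were searched on both strands. The windows are written 5′ to 3′ on the strand of the gene, which is the minus strand for all 3. They are chr8:123894776-123895025 for Acta1, chr2:114052876-114053125 for Actc1 and chr11:120348496-120348745 for Actg1.
Acta1: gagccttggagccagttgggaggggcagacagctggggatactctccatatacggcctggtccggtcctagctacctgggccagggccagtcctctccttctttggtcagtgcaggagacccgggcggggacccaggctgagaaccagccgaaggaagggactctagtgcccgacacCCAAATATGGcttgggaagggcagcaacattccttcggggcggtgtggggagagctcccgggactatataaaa
Actc1: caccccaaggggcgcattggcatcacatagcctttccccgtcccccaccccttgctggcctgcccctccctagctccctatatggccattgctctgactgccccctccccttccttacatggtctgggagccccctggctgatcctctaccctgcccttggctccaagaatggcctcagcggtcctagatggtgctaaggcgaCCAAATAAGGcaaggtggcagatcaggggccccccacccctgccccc
Actg1: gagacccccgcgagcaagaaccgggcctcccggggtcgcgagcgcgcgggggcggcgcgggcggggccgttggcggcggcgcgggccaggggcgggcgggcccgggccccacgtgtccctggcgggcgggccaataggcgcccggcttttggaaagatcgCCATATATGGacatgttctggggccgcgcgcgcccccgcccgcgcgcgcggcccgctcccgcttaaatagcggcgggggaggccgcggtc

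The box began 73 bases before the annotated start in Acta1, 47 in Actc1 and 90 in Actg1. Thus 1 promoter of a skeletal, 1 of a cardiac and 1 of a cytoplasmic actin held it, and no match was found in the windows of Acta2 and the 4 tropomyosins. Nothing is known from this search for Actb and Actg2. Only the strict consensus was searched, an unbroken stretch of A or T between CC and GG, so boxes that differ from it by a base, which are known for smooth muscle genes, were not counted. A CArG box was in 3 of the 9 member windows and in 1.47% of all 32851 windows of this length. Other motifs tied to muscle or general transcription were searched as well. CATTCC, the core of the motif of the TEAD factors, was in 3 member windows (Acta1, Acta2 and Tpm1) and in 12.6% of all, and CAGCTG, an E-box bound by myogenic factors, was in 4 and in 13.001% of all. GGGCGG, the core of the Sp1 motif, was in 6 member windows and in 32.7% of all, with 2 of its 6 matches in Actg1 overlapping each other, and TATAAA was in 1, that of Acta1, and in 12.4% of all. These matches describe letters in a window and are not evidence of binding.

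All levels are log2 values of RMA, a procedure that corrects background, gives all arrays one distribution and combines the probes of a probe set. A difference of 1 is 2-fold. A probe set was called above background in a muscle if it exceeded a limit taken from 104 probe sets of genes specific to other organs, their 95th percentile, at 5.82, 5.74 and 5.89 in muscles 1, 2 and 3. By this limit 22 of the 24 member probe sets were above background in all 3 muscles, beside 52.6% of all probe sets with 1 gene, and the other 2 were below it in every muscle. Each of the 10 genes had at least 1 probe set above background throughout, beside 59.7% of the 12394 genes. Binding strength varies from probe set to probe set, so levels of different genes or probe sets were not compared as amounts of RNA.

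**Figure D1:**
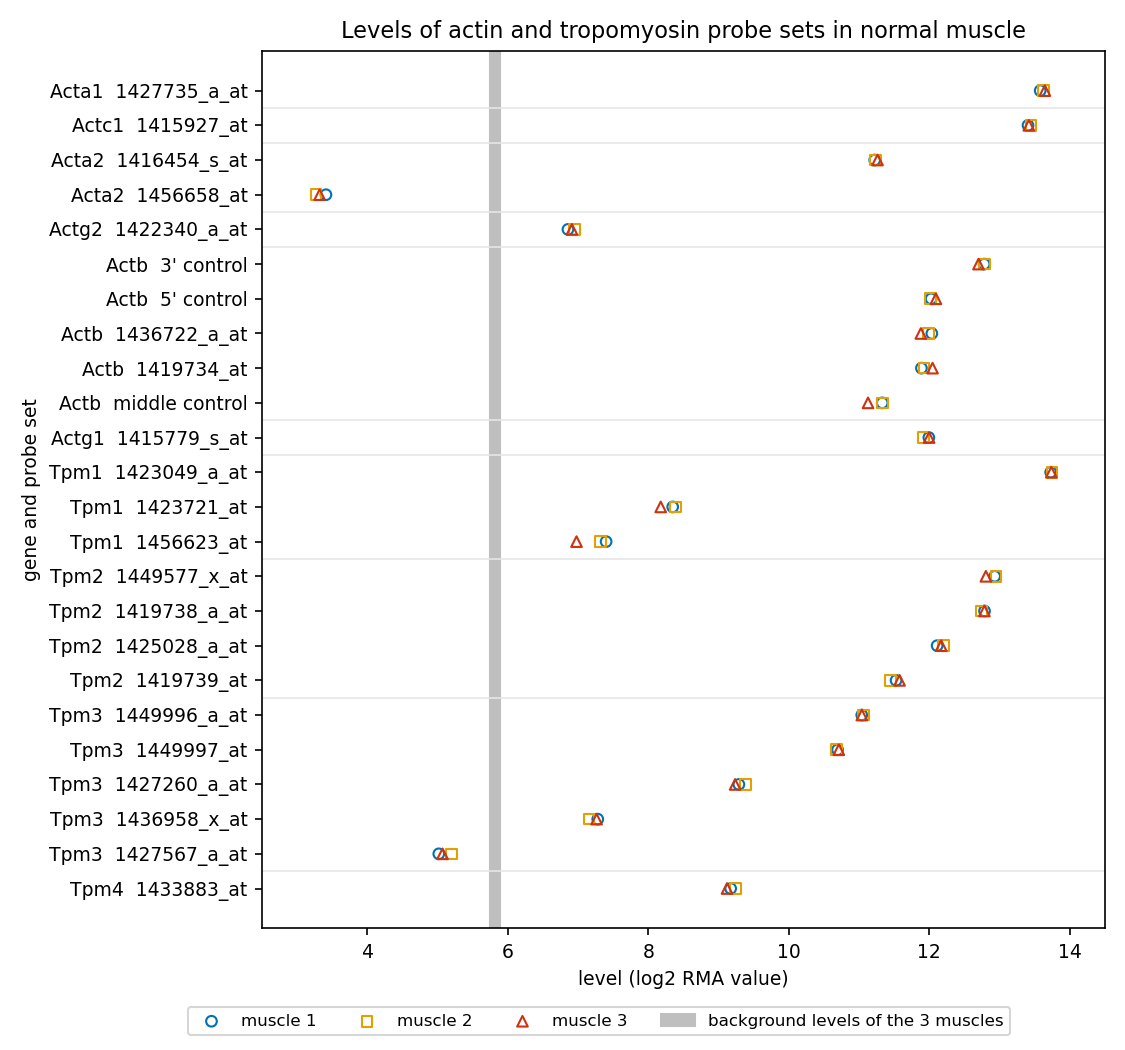
Level of each of the 24 actin and tropomyosin probe sets (x axis, log2 RMA value) in muscle 1, 2 and 3 (symbols), by gene and probe set (y axis), with the background levels as a grey band. In 22 probe sets all 3 symbols lie right of the band and nearly coincide, while 1 probe set of Acta2 and 1 of Tpm3 lie left of it.

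The sarcomeric actins lay near the top of the scale. Acta1, the skeletal actin of adult fibres, had 1 probe set, 1427735_a_at, at 13.58, 13.63 and 13.65 in muscles 1, 2 and 3, or 13.62 ± 0.03 (SD, n = 3). Muscle 1 was the lowest, and the span from lowest to highest was 0.07, a factor of 1.05. Actc1, the actin of heart and of developing skeletal muscle, had 1 probe set, 1415927_at, at 13.41, 13.45 and 13.42, with a mean of 13.43 ± 0.02 (SD, n = 3). Here muscle 2 was the highest, and the span was 0.05. The highest value of any probe set on an array was between 13.73 and 13.75, so both genes lay close to the upper end of the scale. Among all probe sets of an array Acta1 ranked 9, 4 and 3 in muscles 1, 2 and 3, and Actc1 ranked 17, 16 and 17. Saturation of these probe sets was not tested, and a difference between muscles could be compressed at that end.

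The level of Actc1 was set beside marker lists of muscle types. Of 12 heart genes 9 were below background in every muscle, with means from 3.72 for the calcium release channel Ryr2 to 5.42 for the transcription factor Nkx2-5. They included the atrial hormone Nppa, at 4.00 ± 0.23, the cardiac myosin Myh6, at 4.09 ± 0.33, and the cardiac troponin Tnni3, at 4.29 ± 0.14 (SD, n = 3), all named after their values were seen. The 3 above background were Gja1, Myl4 and Tnnt2, which are not confined to the heart, with Gja1 at 10.07 ± 0.04, Myl4 at 7.32 ± 0.05 and Tnnt2 at 6.10 ± 0.12. Of 8 measured genes of developing muscle, 6 were above background in all muscles, beside 59.7% of all genes. They included the embryonic myosin Myh3 at 6.95 ± 0.09, the perinatal Myh8 at 6.49 ± 0.12, Igf2 at 11.55 ± 0.01 and Ncam1 at 6.22 ± 0.18. The rest of the 6 were Myl4 and Tnnt2, which are in the heart list as well, so the lists are not separate. The receptor subunits Chrng and Chrnd were below background in all muscles. Igf2, Ncam1, Chrng and Chrnd were named after their values were seen. All 9 measured genes of the skeletal muscle list were above background in every muscle, with the creatine kinase Ckm at 13.61 ± 0.01. The share of fibres or of RNA behind the level of Actc1 was not tested.

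**Figure D2:**
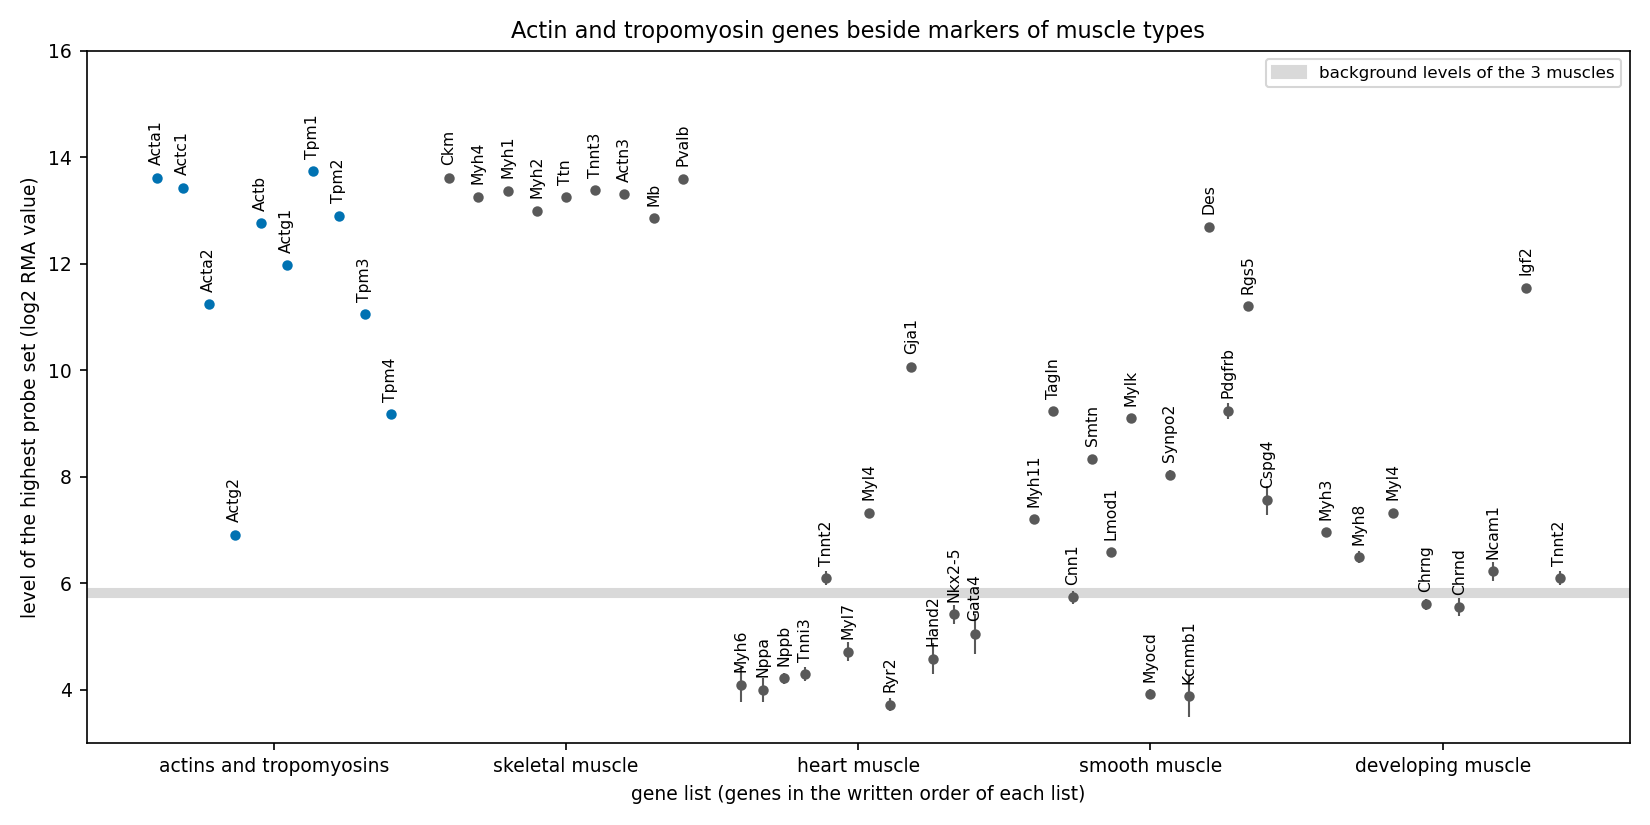
Level of each gene on its highest probe set (y axis, log2 RMA value, mean with SD over 3 muscles as bars) for the actin and tropomyosin genes and for marker lists of skeletal, heart, smooth and developing muscle (x axis), with the background levels as a grey band. All 10 member genes and all skeletal muscle genes lie above the band, and 9 of 12 heart genes lie below it.

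The actins of smooth muscle were above background on 1 probe set each. Acta2, the vascular form, was at 11.22, 11.23 and 11.26 on 1416454_s_at, a mean of 11.24 ± 0.02 (SD, n = 3), with muscle 3 the highest by a span of 0.04. Its other probe set, 1456658_at, was at 3.41, 3.27 and 3.32 and below background in all muscles. The call for this gene rests on the first probe set, whose suffix s marks probes shared by transcripts of more than 1 gene. Actg2, the enteric form, had 1 probe set, 1422340_a_at, at 6.85, 6.95 and 6.91, a mean of 6.91 ± 0.05, and exceeded background by at least 1.02 in each muscle.

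Most genes of a list of smooth muscle and pericyte markers were above background in the same arrays. Of 13 genes of the smooth muscle and pericyte list 10 were above background in all 3 muscles, beside 59.7% of all genes. Among them the smooth muscle myosin Myh11 was at 7.20 ± 0.09, transgelin (Tagln) at 9.23 ± 0.08 and smoothelin (Smtn) at 8.33 ± 0.03 (SD, n = 3). The 10 also held desmin (Des), a gene not confined to smooth muscle, at 12.69. They held the pericyte genes Rgs5, Pdgfrb and Cspg4 at 11.20, 9.24 and 7.56, so the count is not one of vessel smooth muscle alone. Calponin (Cnn1) exceeded background in 1 muscle, and the coactivator Myocd and the channel subunit Kcnmb1 in none. Des, Rgs5, Pdgfrb, Cspg4, Cnn1, Myocd and Kcnmb1 were named after their values were seen. In bulk tissue fewer cells of a type and less RNA per cell cannot be told apart, so these levels do not give the amount of smooth muscle. Other lists stood at 9 of 9 genes above background for fibroblasts, 8 of 9 for endothelium, 6 of 8 for macrophages and 5 of 6 for adipocytes. Beside the 59.7% of all genes, counts of lists this short do not show by themselves that a cell type was present. The collagen Col1a1 was at 11.36 ± 0.07, the endothelial cadherin Cdh5 at 8.49 ± 0.17, the macrophage receptor Csf1r at 9.80 ± 0.09 and the adipocyte hormone Adipoq at 10.51 ± 0.10. Cdh5 and Csf1r were the highest genes of their lists. In the endothelial list Pecam1 was at 6.49 and Tie1 exceeded background in 2 muscles. In the macrophage list Cd14 exceeded it in 1 muscle and Cd68 in none. Tie1, Cd14 and Cd68 were named after their values were seen. In the adipocyte list Lep, the hormone leptin, had a span of over 2-fold, at 5.94, 6.60 and 5.36, lowest in muscle 3.

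All probe sets of the cytoplasmic actins were above background. Actg1, gamma actin, had 1 probe set, 1415779_s_at, at 11.99, 11.92 and 11.998 in muscles 1, 2 and 3, with a mean of 11.97 ± 0.04 (SD, n = 3) and muscle 2 the lowest. Its suffix s marks probes shared by transcripts of more than 1 gene, so the call for Actg1 has the same limit as that for Acta2. Actb, beta actin, had 5 probe sets, of which 3 are control probe sets of the array placed toward the 3′ end, in the middle and toward the 5′ end of the transcript. The 3′ control was at 12.78, 12.79 and 12.70, a mean of 12.76 ± 0.05. The middle control was at 11.33, 11.34 and 11.13, a mean of 11.27 ± 0.12, and the 5′ control at 12.03, 12.02 and 12.10, a mean of 12.05 ± 0.04. Since the controls bind differently, their order was not read as a change along the transcript, and only the muscles were compared on each.

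The Actb probe sets differed in how muscle 3 stood to the others, although in all 5 it was muscle 3 that lay apart. The departure of a muscle was taken as its level less the average of the remaining pair. In muscle 3 the departure was -0.21 for the middle control, -0.08 for the 3′ control and -0.13 for 1436722_a_at, which was at 12.04, 11.99 and 11.88. It was 0.07 for the 5′ control and 0.14 for 1419734_at, which was at 11.89, 11.93 and 12.05. The difference between 1436722_a_at and 1419734_at in muscles 1, 2 and 3 was 0.15, 0.06 and -0.17, so these probe sets of 1 gene gave opposite orders of the muscles. The 3′ minus 5′ difference was 0.76, 0.77 and 0.61, and 5′ minus middle was 0.70, 0.68 and 0.97, which set muscle 3 apart from muscles 1 and 2 in both. Whether RNA quality or labelling moved with these values was not tested.

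**Figure D3:**
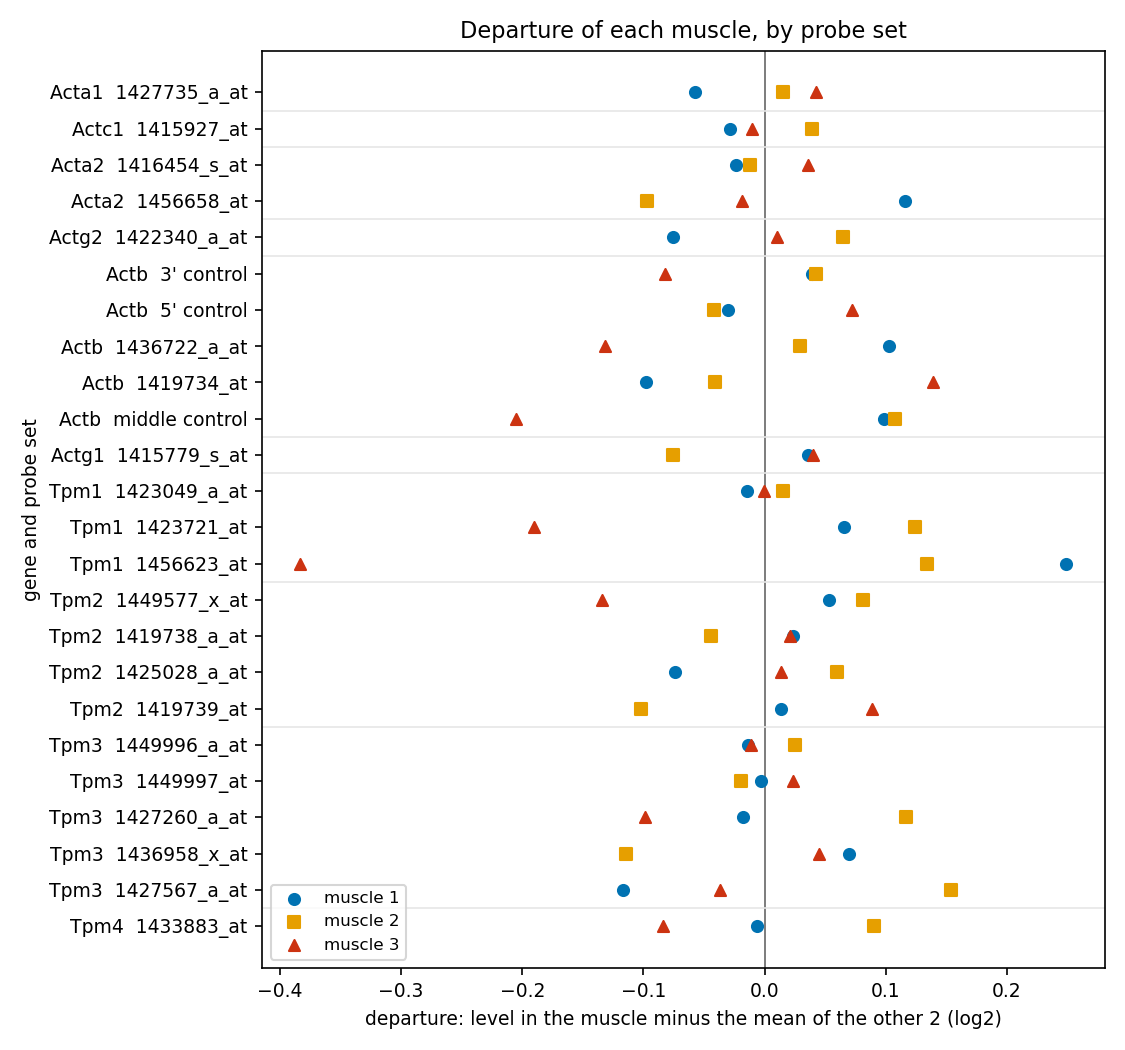
Departure of each muscle (x axis, its level less the average of the remaining pair, log2) for each actin and tropomyosin probe set (y axis), with symbols for muscles 1, 2 and 3 and a line at 0. Muscle 3 lies lowest at -0.38 in a Tpm1 probe set, and in Actb it lies below the others in 3 probe sets and above them in 2.

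Tropomyosin 1 had the member probe set at the top of the scale and the one with the widest span between muscles. Tpm1, the alpha tropomyosin of fast fibres and heart, was at 13.73, 13.75 and 13.74 on 1423049_a_at, a mean of 13.74 ± 0.01 (SD, n = 3). This was the highest value of all 22690 probe sets on each of the 3 arrays, and its span was 0.02, a factor of 1.01. Saturation was not tested for it either, so a small span at this end does not show that the muscles were even. The other 2 probe sets lay away from this end. On 1423721_at the levels were 8.35, 8.39 and 8.18, a mean of 8.30 ± 0.11, and on 1456623_at they were 7.40, 7.32 and 6.98, a mean of 7.23 ± 0.22. Muscle 3 was the lowest in both, with departures of -0.19 and -0.38, whereas its departure on the first probe set was under 0.01 in size. The span of 0.42 on 1456623_at, a factor of 1.34, was the widest of any member above background. The annotation does not say which transcripts each probe set reads, so their levels were not assigned to muscle or cytoskeletal forms.

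Tpm2, the beta tropomyosin of skeletal muscle, was above background on all 4 of its probe sets. The means were 12.90 ± 0.08 for 1449577_x_at, 12.77 ± 0.03 for 1419738_a_at, 12.16 ± 0.05 for 1425028_a_at and 11.52 ± 0.06 for 1419739_at (SD, n = 3). The first was at 12.93, 12.95 and 12.81, and muscle 3 lay apart by -0.13, while the other 3 probe sets had departures in muscle 3 of 0.02, 0.01 and 0.09. The suffix x marks probes that can also bind other sequences. The muscle apart was therefore not shared across the probe sets of this gene.

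Tpm3, which gives the tropomyosin of slow fibres and several cytoskeletal forms, had 5 probe sets, of which 4 were above background. The upper pair, 1449996_a_at and 1449997_at, had means of 11.05 ± 0.01 and 10.70 ± 0.01 (SD, n = 3) and spans of at most 0.03, among the smallest of all members. Below them 1427260_a_at was at 9.29, 9.38 and 9.24, and 1436958_x_at at 7.28, 7.16 and 7.26. The lowest, 1427567_a_at, was at 5.02, 5.20 and 5.07 and below background in all muscles. The 4 above background thus had spans of 0.03 to 0.14. Tpm4, a cytoskeletal tropomyosin, had 1 probe set, 1433883_at, at 9.17, 9.24 and 9.12, a mean of 9.18 ± 0.06, with muscle 2 the highest.

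Spread between muscles was tested for every probe set above background in at least 1 muscle by setting its variance against limma's prior variance for its level. None of the 22 member probe sets tested varied in excess at an adjusted p of 0.05 by limma, where 0.135% of all 11825 probe sets did. The lowest adjusted p of a member by limma was 0.845, that of the middle Actb control, which was lower in muscle 3 by 0.21. At an unadjusted p under 0.05 there were 3 member probe sets of 22 beside 4.99% of all, namely this control, Actb 1419734_at and Tpm2 1449577_x_at, and muscle 3 was the muscle apart in all 3. No member had a span of 2-fold or more, beside 0.727% of all probe sets, and none reached 1.5-fold. Nothing in the labels ties the muscles to separate animals, so p-values measure only how far these samples differed, and that spread may be technical.

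The SDs of the 22 probe sets ran from 0.01 to 0.22, with a median of 0.0473 against 0.0898 over all probe sets tested. Spread falls with level on these arrays and the members were mostly high, with a median level of 11.74 against 7.68. Within the 8 members at levels of 12 and above the median SD was 0.0380, beside 0.0278 over the 235 probe sets there, and within the 8 members from 10 to 12 it was 0.0539, beside 0.0415 over 1185. Within the 3 members from 8 to 10 it was 0.0727, beside 0.0678 over 3629, and within the 3 below 8 it was lower than over all, at 0.0666 beside 0.122 over 6776. The SD lay above limma's prior for the level in 13 of 22 members, or 59.1%, and in 41.9% of all probe sets. All 5 probe sets of Actb were among the 13, so these 5 share a transcript, and the other 8 were from Acta1, Actg1, Tpm1, Tpm2 and Tpm3.

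**Figure D4:**
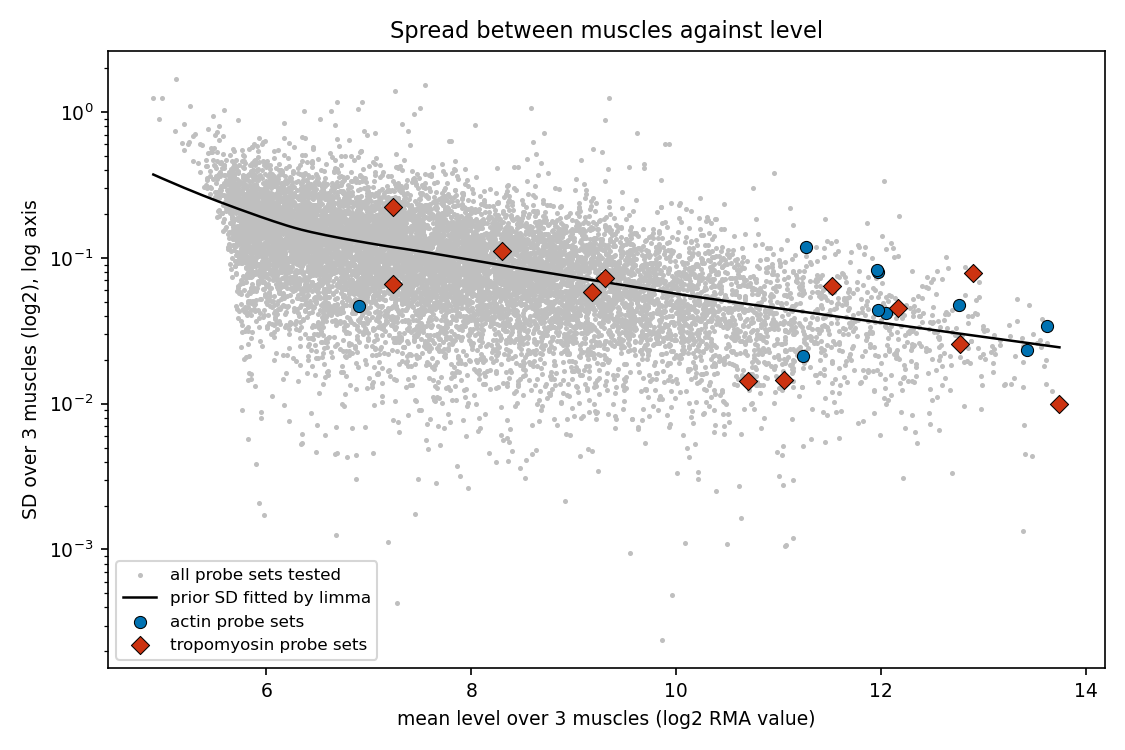
SD over the 3 muscles (y axis, log2, log scale) against mean level (x axis, log2 RMA value) for the 11825 probe sets tested (grey), the 10 actin and 12 tropomyosin probe sets above background (blue circles and red diamonds), and limma's prior SD (line). The members mostly lie at high levels and low SD, on both sides of the line.

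Muscle 3 was the muscle farthest from the others in the arrays as a whole. It was the one apart in 15 of the 16 probe sets called for excess variance, higher in 14 of them, and its correlation with muscles 1 and 2 across probe sets, which are not independent replicates, was 0.990 and 0.989, beside 0.994 between muscles 1 and 2. Among the 22 members it was the muscle apart in 10, or 45.5%, with 4 higher and 6 lower, beside 40.8% of all probe sets. The median departure of the members in muscles 1, 2 and 3 was -0.0050, 0.0270 and 0.0048, beside 0.0238, 0.0114 and -0.0349 over all probe sets, and its sign in muscles 1 and 3 turned without probe sets matching several transcripts. Without muscle 3 the widest span of a member fell from 0.42 to 0.12 and 0 members were at an unadjusted p under 0.05 by limma, while without muscle 1 or muscle 2 the widest span was 0.34 or 0.42.

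Genes that work with actin were present almost throughout. Of 62 measured genes in 5 lists of actin partners, 58 were above background in all 3 muscles, beside 59.7% of all genes. All 10 genes of the contractile thin filament were, among them the filament anchor Nrap at 11.08 ± 0.13 and the capping proteins Tmod1 and Tmod4 at 10.89 ± 0.02 and 12.32 ± 0.05 (SD, n = 3). The same held for all 16 genes of actin turnover, with the severing protein cofilin at 10.28 ± 0.11 for Cfl1 and 11.995 ± 0.04 for Cfl2 and destrin (Dstn) at 9.33 ± 0.04. It held for all 9 genes of nucleation and branching, with Actr3, Arpc1a and Arpc2 of the Arp2/3 complex at 10.05 ± 0.07, 7.73 ± 0.17 and 10.97 ± 0.06, and for all 13 cross-linkers, with the actinins Actn1, Actn2 and Actn3 at 7.86 ± 0.02, 11.38 ± 0.04 and 13.31 ± 0.02.

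The list of regulators of actin genes was the exception, with 10 of 14 above background in every muscle, beside 59.7% of all genes. The 10 include the chaperonin subunits Cct2, Cct5 and Tcp1, at 10.87, 10.98 and 10.80, also named after their values were seen. These are not regulators of transcription, so the count is not one of transcription factors and coactivators alone. Srf, the serum response factor, was at 8.55, 8.50 and 8.66, a mean of 8.57 ± 0.08 (SD, n = 3), its coactivator Mrtfa at 8.41 ± 0.08 and Mef2a at 9.95 ± 0.03. The coactivators Mrtfb and Myocd and the factor Tead1 were below background in all muscles, at 4.24, 3.91 and 4.23, and Tead4 exceeded it in 2; these 4 were named after their values were seen. A level below background in these arrays does not show that a gene was silent. None of the 103 partner probe sets tested varied in excess by limma, and 6 did at an unadjusted p under 0.05, or 5.83%, beside 4.99% of all. Only 1 reached a 2-fold span, 1426777_a_at of Wasl, an activator of the Arp2/3 complex, at 6.06, 5.83 and 6.92. In muscle 2 it lay close to the background limit of 5.74. For the same gene 1452193_a_at was at 8.57, 8.91 and 8.64 and lowest in muscle 1. Wasl 1426776_at was at 7.89, 7.84 and 7.89, a span of 0.05, and 1432155_at was below background in all muscles.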

How the data were processed

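The authors deposited 1 table of log2 values, 22690 probe sets by 3 arrays, and the submitters' processing notes name RMA. The sources used here give neither its version nor which arrays were normalized together. Per the labels' protocols, 500 ng of Trizol-extracted RNA was amplified and labelled. Quantile normalization within RMA hides changes shared by most genes. The table has no detection calls, and precision is limited by the number of arrays. GEO's platform annotation gave 1 gene for 20393 probe sets, several for 691 and none for 1606; only the first were used. All 24 member probe sets matched a RefSeq gene (GRCm38.p6) of the same symbol by Entrez number.

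Background was set at percentile 95 of 104 probe sets that read 70 genes of other organs. The variance of each probe set above it in at least 1 muscle was set against the prior of limma 3.58.1 (R 4.3.3; robust, with a trend on level) by an F test, one-sided, and p-values were adjusted by Benjamini-Hochberg over 11825 probe sets. The test was tried on data simulated from its own fitted prior, where probe sets given a shift moved by 2-fold or more. Such shifts exceed the span of any member, so this does not show its power for differences of that size. Nor does it show how well the prior describes the real arrays. Members, lists and thresholds were chosen with earlier results of these data known. The text names every member probe set, examples from the first 3 genes above background in each list, and list members of 2-fold span or excess variance. Further list members were named after their values were seen. Alternatives were other scaling, background, filter, probe set choice and limma settings, and leaving out each muscle. Proteins were not compared here. Figures used Python 3.11.15 and matplotlib 3.10.9.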

Additional observations from a re-analysis of the deposited data

How the results depend on the processing

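Another scaling moved no member level by more than 0.0084. Of 103 counts, medians and differences between probe sets of a gene under an alternative, 98 were unchanged by the criterion used. It allowed counts to move within 1.5 times and medians within the median SD. That limit is wider than the median departures themselves, so a change of their sign can pass it. In muscle 1 the median departure of the members went from -0.0050 to 0.0051 without probe sets matching several transcripts and passed as unchanged. The count of member probe sets above background, 22, became 10 without probe sets matching several transcripts and 10 with 1 probe set per gene, and that of actin partners, 100, became 59 and 58; all 4 hold fewer probe sets by construction. The median departure of the members in muscle 3, 0.0048, became -0.0464 without probe sets matching several transcripts, and was -0.0058 with 1 probe set per gene or with no filter on dim probe sets, so no direction is given for it. No member or partner varied in excess under any alternative run, with limma's lowest adjusted p of a member between 0.688 and 0.987; for members these included leaving out the Actb control probe sets, chosen after seeing the data. Over all probe sets the count of 16 was 31 after quantile normalization, 10 with background at the 99th percentile, 6 with 1 probe set per gene, 0 without a trend, without the robust fit or without muscle 1, and 1 without muscle 3. No paired analysis was possible because there is 1 group.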
